A study of Homo sapiens with 6 samples.

Results

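The proteasome is the protease complex that degrades most ubiquitin-tagged proteins in the cell. Its genes were followed here in SW1353, an established cell line from a human chondrosarcoma (a malignant, cartilage-forming bone tumour). Earlier results of these data were known when these genes were chosen by symbol. The rule took every gene named PSM, a letter from A to G and a number, with 1 such gene not analysed here. This gave 47 genes of the 60691 in the count table, 14 for the core particle, 17 for the regulatory particle, 7 for assembly, 4 for the immune forms and 5 for other activators, an inhibitor and tissue variants. RNA was sequenced from 3 shSIRT1 libraries, cells transduced by lentivirus with a short hairpin RNA (shRNA) whose label names SIRT1 (a deacetylase that consumes NAD+) as its target, and from 3 shfirefly libraries, cells transduced in the same way with a hairpin against firefly luciferase, which human cells lack. All cells, control cells included, stood in 3% oxygen, and the labels give 48 h from seeding; the design text calls the 3 libraries of a group biological replicates. The labels give no hairpin sequence and no second hairpin, and the treatment protocol names EPAS1, the gene of HIF-2α, where sample names and design text name SIRT1. The study set out to relate SIRT1 to transcription driven by HIF-2α and to chondrosarcoma malignancy.

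In the core particle, rings of alpha subunits (PSMA genes) form the gate and rings of beta subunits (PSMB genes) hold the proteolytic sites. The regulatory particle binds ubiquitin chains, removes them and, through its ATPases (PSMC genes) and non-ATPase subunits (PSMD genes), unfolds substrates and feeds them into the core. Dedicated chaperones build the particle and leave it. Interferon induces immune subunits that replace the constitutive proteolytic ones and change which peptides are cut for presentation on HLA class I. The constitutive genes are known to be transcribed together, and the factor NFE2L1 raises them when proteolysis falls short.

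Total counts were 24993064 to 29564361 in the shSIRT1 libraries and 28556696 to 32044191 in the shfirefly libraries, and levels are given as counts per 1000000 library counts (CPM) over library sizes scaled by TMM. SIRT1 itself stood at 12.9, 13.2 and 14.7 CPM in shSIRT1 and at 26.0, 24.8 and 24.0 CPM in shfirefly, and EPAS1 at 245, 226 and 227 CPM in shSIRT1 and 477, 483 and 409 CPM in shfirefly, so both were lower in shSIRT1 (log2 fold change -0.88 ± 0.07 SE for SIRT1, adjusted p = 2.3e-09, and -0.97 ± 0.06 SE for EPAS1, adjusted p = 5.8e-07). The mesenchymal marker VIM averaged 5807 ± 101 CPM (SD, n = 3) in shSIRT1 and 7442 ± 286 CPM in shfirefly, while COL2A1 and ACAN, which define cartilage cells, did not exceed 0.620 and 1.82 CPM in any library. SOX9, the regulator of cartilage genes, averaged 53.1 ± 1.17 CPM (SD, n = 3) in shSIRT1 and 43.7 ± 2.54 CPM in shfirefly and rose (adjusted p = 0.0001). COL1A1, a fibrillar collagen of bone and fibrous tissue, averaged 3587 CPM in shSIRT1 and 4738 CPM in shfirefly. The other tested markers of this list fell: ACAN (log2 fold change -1.16, adjusted p = 0.0018, at low counts), COL1A1 (-0.4, adjusted p = 6e-09) and VIM (-0.36, adjusted p = 5.1e-08). The blood cell markers PTPRC, CD3E and CD14, PTPRC being the leukocyte antigen CD45, stayed at or below 0.521 CPM in every library. Immune proteasome transcripts were therefore read in cultures with near-zero leukocyte markers, in which fewer cells of a type and less RNA per cell cannot be told apart.

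The promoters of the members that went opposite ways are shown first. RefSeq windows on GRCh38.p14 (250 bases before the transcription start and 50 after it) matched 41 of the 47 genes. Each sequence runs 5′ to 3′ along its gene. Capitals mark the longest run of letters, on either strand, that windows of all 4 immune genes share.
PSMB8 (chr6:32843998-32844297, reverse strand): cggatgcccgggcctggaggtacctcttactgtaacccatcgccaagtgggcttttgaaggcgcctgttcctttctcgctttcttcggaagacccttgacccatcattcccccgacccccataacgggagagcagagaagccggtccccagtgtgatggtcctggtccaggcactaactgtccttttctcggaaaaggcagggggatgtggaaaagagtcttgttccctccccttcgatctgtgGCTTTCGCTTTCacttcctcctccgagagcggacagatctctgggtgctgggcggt
PSMB10 (chr16:67936801-67937100, reverse strand): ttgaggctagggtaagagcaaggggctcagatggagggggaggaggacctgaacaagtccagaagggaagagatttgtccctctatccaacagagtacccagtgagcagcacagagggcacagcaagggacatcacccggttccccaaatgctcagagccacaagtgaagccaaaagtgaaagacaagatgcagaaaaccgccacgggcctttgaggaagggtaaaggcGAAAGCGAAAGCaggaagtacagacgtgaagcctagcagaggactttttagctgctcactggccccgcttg
PSME1 (chr14:24135944-24136243, forward strand): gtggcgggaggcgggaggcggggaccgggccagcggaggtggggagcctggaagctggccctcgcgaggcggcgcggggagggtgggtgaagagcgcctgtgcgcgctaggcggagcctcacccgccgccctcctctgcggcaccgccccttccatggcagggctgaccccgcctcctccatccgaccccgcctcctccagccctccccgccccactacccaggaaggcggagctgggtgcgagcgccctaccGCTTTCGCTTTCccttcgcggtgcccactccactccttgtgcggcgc
PSME2 (chr14:24146561-24146860, reverse strand): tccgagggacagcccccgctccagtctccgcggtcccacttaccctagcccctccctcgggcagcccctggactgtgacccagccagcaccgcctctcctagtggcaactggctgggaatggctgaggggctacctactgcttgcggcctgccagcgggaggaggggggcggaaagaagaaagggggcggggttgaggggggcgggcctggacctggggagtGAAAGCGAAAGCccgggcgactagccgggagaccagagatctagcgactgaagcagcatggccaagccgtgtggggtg
The run had 12 bases, GAAAGCGAAAGC or its reverse complement GCTTTCGCTTTC. Its first base lay 6 bases before the start in PSMB8, 21 before it in PSMB10, 28 before it in PSME2 and 3 past it in PSME1. Since the run was read from these windows, its presence there is no finding, and its rarity elsewhere adds no support. It stood in 17 of 35116 windows of all genes (0.0484%). Among them was 1 further member, the assembly gene PSMG4, which rose in shSIRT1. It contains GAAANNGAA, the core of the interferon-stimulated response element, which stood in 8.11% of all windows. Apart from these 5 genes, PSMA4, PSMB4 and PSMC2 held that core, so 1 of 16 regulatory particle genes did. PSMB8 has a second RefSeq window, at chr6:32844630-32844929, which has no match to either. A match describes letters only and shows no binding.

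In the constitutive genes, capitals mark the core of the antioxidant response element, TGACNNNGC on either strand, which NFE2L1 and NFE2L2 are known to recognise. The 3 windows shown belong to the genes with the largest rises among those that held it in the regulatory particle and among the assembly factors.
PSMD1 (chr2:231056617-231056916, forward strand): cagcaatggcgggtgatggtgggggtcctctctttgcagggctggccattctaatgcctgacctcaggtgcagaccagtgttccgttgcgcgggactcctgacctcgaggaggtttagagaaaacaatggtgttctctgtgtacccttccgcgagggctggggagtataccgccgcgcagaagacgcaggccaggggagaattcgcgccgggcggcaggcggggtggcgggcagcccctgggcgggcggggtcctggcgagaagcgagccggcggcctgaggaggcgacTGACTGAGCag
PSMD12 (chr17:67366528-67366827, reverse strand): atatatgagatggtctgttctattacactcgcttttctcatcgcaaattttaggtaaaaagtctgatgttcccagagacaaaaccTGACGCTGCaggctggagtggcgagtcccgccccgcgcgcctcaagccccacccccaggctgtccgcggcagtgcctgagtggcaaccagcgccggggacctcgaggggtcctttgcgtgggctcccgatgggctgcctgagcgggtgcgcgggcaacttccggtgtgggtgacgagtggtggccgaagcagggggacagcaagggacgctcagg
PSMG1 (chr21:39183402-39183701, reverse strand): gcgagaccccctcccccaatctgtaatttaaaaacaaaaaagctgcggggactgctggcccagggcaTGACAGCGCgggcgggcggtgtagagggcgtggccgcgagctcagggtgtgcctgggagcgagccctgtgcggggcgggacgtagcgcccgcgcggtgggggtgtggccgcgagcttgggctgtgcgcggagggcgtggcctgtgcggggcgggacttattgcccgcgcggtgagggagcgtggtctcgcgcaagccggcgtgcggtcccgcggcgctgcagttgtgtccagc
This core stood in at least 1 window of 14 of the 41 matched genes, and in 14 of 50 member windows (28.0%) against 4687 of 35116 windows of all genes (13.3%). By class it was found in 2 of 10 core genes, 5 of 16 regulatory particle genes, 4 of 6 assembly genes, 2 of 4 immune genes (PSME1 and PSME2) and 1 of 5 others (PSME4). The windows of PSMD11 and PSME3, whose rises came next in size after that of PSMD1, did not hold it. CCAAT, the box bound by NF-Y, was found in 19 of 50 member windows (38%) and 34.6% of all windows, and in none of the immune windows.

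Proteasome genes rose as a group in shSIRT1, and the immune genes went the other way. Of the 45 members that passed the filter on low counts, 36 rose, 4 fell and 5 did not pass (edgeR quasi-likelihood test, adjusted p under 0.05 over all genes). Over all 16591 tested genes 52.8% were called, 26.8% higher and 26.0% lower. The median log2 fold change was 0.26 for the tested members and 0.0 for all tested genes, and the members ranged from -0.56 for PSMB10 to 0.71 for PSMD1. Every change was below 2-fold. For 43 of the 45, CPM values in shSIRT1 and in shfirefly stood wholly apart, 38 with shSIRT1 above and 5 below; over all tested genes this held for 59.7%, with 30.4% above and 29.4% below. The tissue variants PSMA8, of the testis, and PSMB11, of the thymus, did not pass the filter: PSMA8 had 3 counts and PSMB11 had 2 over the shSIRT1 libraries, and both had 0 in shfirefly, where a count of 0 allows up to 0.0968 to 0.111 CPM (3 counts, counting error only).

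**Figure D1:**
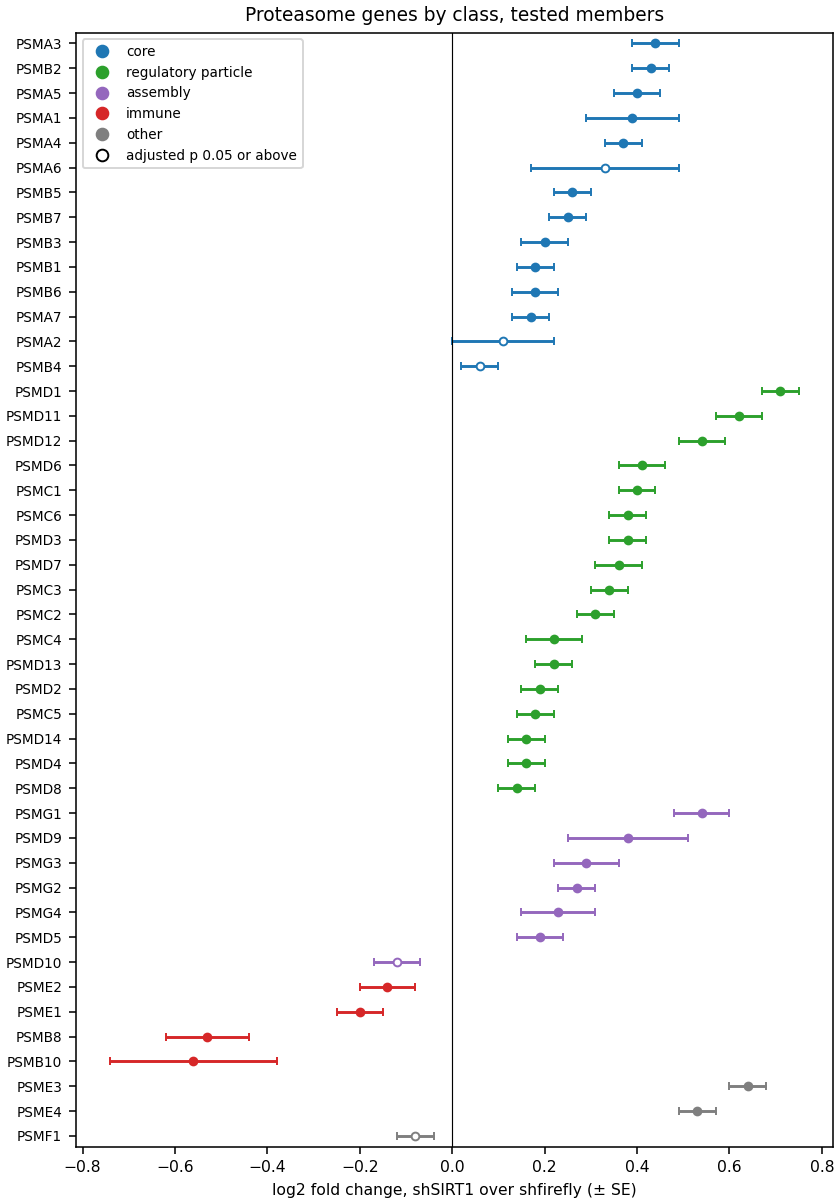
Log2 fold change of shSIRT1 over shfirefly (x axis, ± SE) for the 45 tested proteasome genes, coloured by class and ordered by size within it, with open points where the adjusted p was 0.05 or above. The 17 regulatory particle genes all lie to the right of 0 (PSMD14 turned below it with the GC and length correction), and the 4 immune genes to the left.

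**Figure D2:**
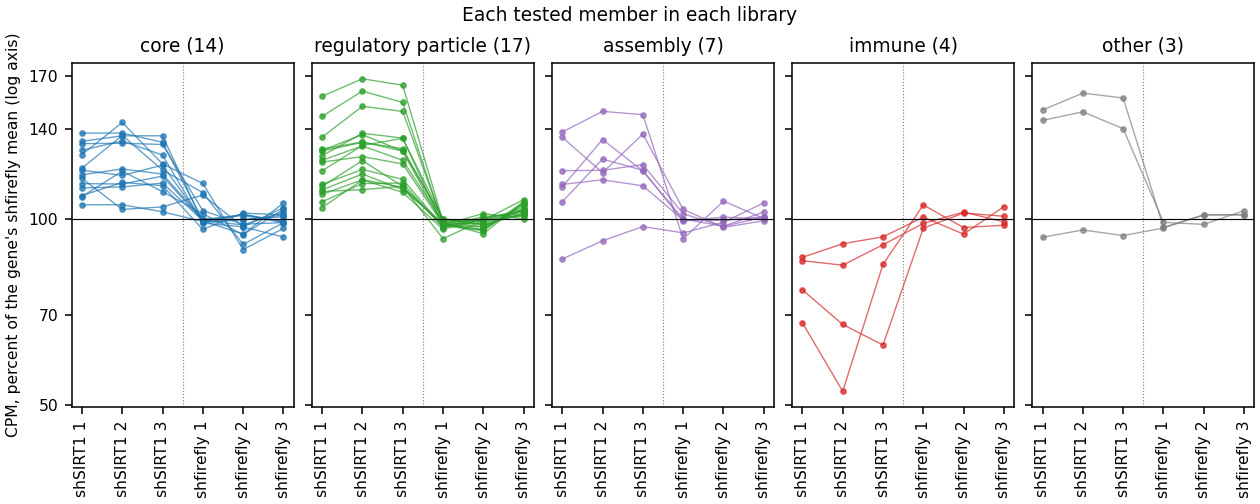
CPM of each tested member in each library as a percent of its own shfirefly mean (log axis), 1 line per gene and 1 panel per class, with shSIRT1 libraries left of the dotted line. Lines of the core and regulatory particle step down towards shfirefly, and the 4 immune lines step up.

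The core particle rose by a modest amount. Of its 14 genes 11 rose, 3 did not pass and 0 fell (0 also at an unadjusted p under 0.05 and 0 by DESeq2), with a median log2 fold change of 0.26. The proteolytic subunits moved together. PSMB5, which carries the chymotrypsin-like site, had 104, 102 and 106 CPM in shSIRT1 and 86.1, 86.6 and 87.5 CPM in shfirefly, a log2 fold change of 0.26 ± 0.04 SE (adjusted p = 1e-05). PSMB7, with the trypsin-like site, had 109.6, 112 and 109.9 CPM in shSIRT1 and 92.9, 94.2 and 91.8 CPM in shfirefly (0.25 ± 0.04 SE, adjusted p = 1.6e-05). PSMB6, with the caspase-like site, had 64.5, 70.9 and 65.7 CPM in shSIRT1 and 60.5, 56.0 and 61.5 CPM in shfirefly (0.18 ± 0.05 SE, adjusted p = 0.0061). All 3 stood above the whole shfirefly range in each shSIRT1 library, and the PSMB6 call was lost without shSIRT1 replicate 2 (adjusted p = 0.058).

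The largest core rises were in subunits without a proteolytic site. PSMA3, an alpha ring subunit, had 74.7, 74.7 and 72.2 CPM in shSIRT1 and 53.9, 51.3 and 57.6 CPM in shfirefly, 1.36-fold higher (adjusted p = 1.3e-07). PSMB2, an inactive beta subunit, had 146, 149 and 149 CPM in shSIRT1 and 108, 109 and 111 CPM in shfirefly, 1.35-fold higher (adjusted p = 4e-09). PSMA5, also of the alpha ring, had 64.9, 65.0 and 64.7 CPM in shSIRT1 and 50.6, 48.1 and 48.4 CPM in shfirefly, 1.32-fold higher (adjusted p = 2.1e-07). None of these ranges overlapped. By ring, 5 of 7 alpha genes rose with a median of 0.37 and 6 of 7 beta genes rose with a median of 0.20; the difference between the rings was not tested. PSMB4, a beta subunit whose late entry drives the joining of incomplete particles, was the flattest gene counted without overlap, at 116, 116 and 113 CPM in shSIRT1 and 109, 112 and 109 CPM in shfirefly (0.06 ± 0.04 SE, adjusted p = 0.17).

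In the regulatory particle every gene rose in the reported fit. Not every call held under the alternatives, as given below for PSMD14 and PSMD8. All 17 passed the test, with log2 fold changes between 0.14 and 0.71 and a median of 0.34, and no CPM ranges overlapped; 0 fell, 0 also at an unadjusted p under 0.05 and by DESeq2. The 6 ATPase genes, which form the unfolding ring, were the more uniform set, between 0.18 for PSMC5 and 0.40 for PSMC1. The 11 non-ATPase genes ran from 0.14 for PSMD8 to 0.71 for PSMD1. PSMD1, a large scaffold subunit of the base, had 239, 255 and 249 CPM in shSIRT1 and 150.1, 147 and 157 CPM in shfirefly, 1.64-fold higher (0.71 ± 0.04 SE on the log2 scale, adjusted p = 3.8e-12). Its close relative in the base, PSMD2, was 1.14-fold higher (0.19 ± 0.04 SE, adjusted p = 0.00019), at 761, 807 and 762 CPM in shSIRT1 and 672, 672 and 704 CPM in shfirefly. These relatives thus differed in size of change, although that difference was not itself tested.

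Subunits of the lid, the part that carries the deubiquitinase, spanned most of the range. PSMD11 had 132, 145 and 139 CPM in shSIRT1 and 88.4, 86.5 and 95.4 CPM in shfirefly, 1.54-fold higher (adjusted p = 3.4e-10). PSMD12 had 94.5, 106 and 104 CPM in shSIRT1 and 68.8, 66.0 and 74.3 CPM in shfirefly, 1.45-fold higher (adjusted p = 2.7e-08). PSMD6 had 76.5, 83.2 and 81.7 CPM in shSIRT1 and 59.0, 57.9 and 64.5 CPM in shfirefly, 1.33-fold higher (adjusted p = 4.9e-07). All 3 are scaffold subunits of the lid, and each was higher in every shSIRT1 library. The deubiquitinase itself, PSMD14, moved less, at 147, 148 and 149.9 CPM in shSIRT1 and 129, 132 and 137 CPM in shfirefly (0.16 ± 0.04 SE, adjusted p = 0.0013). With an offset for GC content and length of transcripts, PSMD14 was at -0.13 (adjusted p = 0.045); its longest annotated transcript has 31.96% G and C, the lowest share among the members, and the part of GC content was not tested further. PSMD4, a ubiquitin receptor, was also near the low end (0.16 ± 0.04 SE, adjusted p = 0.0041). The call for PSMD8, at 0.14, was lost without shSIRT1 replicate 2 and without shfirefly replicate 1 (adjusted p = 0.078 and 0.093).

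Of the 7 assembly factors 6 rose and 1 did not pass. PSMG1, which with PSMG2 starts the alpha ring, had 37.5, 40.5 and 40.0 CPM in shSIRT1 and 25.2, 29 and 27.2 CPM in shfirefly, 1.45-fold higher (adjusted p = 2.2e-07). PSMG2 had 97.1, 97.2 and 99.3 CPM in shSIRT1 and 82.7, 78.9 and 81.7 CPM in shfirefly, 1.21-fold higher (adjusted p = 9.2e-06). The second pair of core chaperones, PSMG3 and PSMG4, was less abundant in counts. PSMG3 had 21.3, 25.4 and 22.6 CPM in shSIRT1 and 18.9, 18.4 and 19.4 CPM in shfirefly (0.29 ± 0.07 SE, adjusted p = 0.0022). PSMG4 had 14.5, 17.0 and 16.3 CPM in shSIRT1 and 13.5, 13.7 and 13.6 CPM in shfirefly (0.23 ± 0.08 SE, adjusted p = 0.023), a call lost by DESeq2 (adjusted p = 0.079), with upper-quartile factors and without shSIRT1 replicate 2, shSIRT1 replicate 3 or shfirefly replicate 1 (adjusted p up to 0.12).

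The chaperones of the base did not move as 1 set. PSMD5 had 57.4, 58.4 and 57.1 CPM in shSIRT1 and 50.3, 50.2 and 50.9 CPM in shfirefly (0.19 ± 0.05 SE, adjusted p = 0.0014). PSMD9 had 5.02, 4.4 and 5.08 CPM in shSIRT1 and 3.84, 3.59 and 3.68 CPM in shfirefly (0.38 ± 0.13 SE, adjusted p = 0.021), a call lost by DESeq2 (adjusted p = 0.094) and without shSIRT1 replicate 1, shSIRT1 replicate 3 or shfirefly replicate 2 (adjusted p up to 0.07). PSMD10, the oncoprotein gankyrin, had 65.5, 70.1 and 73.9 CPM in shSIRT1 and 72.2, 75.1 and 80.7 CPM in shfirefly, ranges that overlapped (-0.12 ± 0.05 SE, adjusted p = 0.052). PSMD10 was the only assembly factor below 0, and it passed the test under 7 alternatives, with log2 fold changes of -0.17 to -0.12 there, while library totals alone gave 0.00 (adjusted p = 0.97).

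In the reported fit the immune forms were the genes that fell, with PSMD10 of the assembly class at -0.12 (adjusted p = 0.052). All 4 fell and 0 rose (0 also at an unadjusted p under 0.05 and by DESeq2), with a median log2 fold change of -0.37 and no overlap of ranges. PSMB8, the immune counterpart of PSMB5, had 12.4, 10.9 and 10.1 CPM in shSIRT1 and 15.6, 16.5 and 16.3 CPM in shfirefly, 1.44-fold lower (log2 fold change -0.53 ± 0.09 SE, adjusted p = 2.4e-05). PSMB10, the immune counterpart of PSMB7, had 2.31, 1.79 and 2.87 CPM in shSIRT1 and 3.58, 3.29 and 3.32 CPM in shfirefly (-0.56 ± 0.18 SE, adjusted p = 0.011). Both are interferon-inducible proteolytic subunits, and both were at low levels in these cells; 58.31% of the coding bases of PSMB10 are shared with another annotated gene.

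PSME1 and PSME2 encode the subunits of the interferon-inducible activator that caps the core in place of the regulatory particle. PSME1 had 60.5, 59.5 and 64.2 CPM in shSIRT1 and 69.5, 72.5 and 69.9 CPM in shfirefly, 1.15-fold lower (adjusted p = 0.00088). PSME2 had 36.6, 38.5 and 39.5 CPM in shSIRT1 and 42.5, 39.9 and 44.2 CPM in shfirefly, 1.11-fold lower (adjusted p = 0.033). Of the 4 calls, that of PSMB8 held under each alternative run. PSMB10 did not pass by DESeq2, with the GC and length correction or without shSIRT1 replicate 2 (adjusted p = 0.053, 0.06 and 0.08), and PSME2 did not pass under 8 of the 15 alternatives, among them DESeq2 (adjusted p = 0.088). The count of falling immune genes was thus 2 by DESeq2, 2 with library totals alone and 1, PSMB8, with the GC and length correction, where PSME1 was at -0.08 (adjusted p = 0.19). PSME1 and PSME2 were at -0.08 and -0.02 with scaling by library totals alone, a scaling that moved the median of all tested genes to 0.13, which left them 0.21 and 0.15 below that median.

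The activators and inhibitor outside the immune class completed the contrast. PSME3, the nuclear homolog of PSME1 and PSME2, had 131, 139.5 and 137 CPM in shSIRT1 and 84.7, 88.6 and 88.7 CPM in shfirefly, 1.56-fold higher (0.64 ± 0.04 SE on the log2 scale, adjusted p = 3.6e-11). PSME4, a large nuclear activator linked to the breakdown of acetylated histones, had 95.4, 98.5 and 92.5 CPM in shSIRT1 and 65.3, 64.8 and 68.2 CPM in shfirefly, 1.44-fold higher (adjusted p = 1.7e-09). PSMF1, which inhibits the core in vitro, had 94.7, 97.3 and 95.3 CPM in shSIRT1 and 98.0, 103 and 103 CPM in shfirefly (-0.08 ± 0.04 SE, adjusted p = 0.11), and was at 0.04 with library totals alone.

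Ratios within a library do not depend on library scaling. PSMB8 and PSMB10 were therefore set against their constitutive counterparts PSMB5 and PSMB7 as CPM per kb of exons. PSME1 and PSME2 were set against PSME3, a homolog and not a subunit that they replace. PSMB8 over PSMB5 was 0.0701, 0.0628 and 0.0564 in shSIRT1 and 0.106, 0.112 and 0.110 in shfirefly, so that the shSIRT1 mean was 57.7% of the shfirefly mean. PSMB10 over PSMB7 was 0.0204, 0.0154 and 0.0251 in shSIRT1 and 0.0372, 0.0337 and 0.0349 in shfirefly, a mean at 57.6%. In both pairs every shSIRT1 library lay below every shfirefly library. PSME1 over PSME3 averaged 1.31 ± 0.0640 in shSIRT1 and 2.34 ± 0.0513 in shfirefly, a mean at 55.8%, and PSME2 over PSME3 averaged 0.404 ± 0.00895 in shSIRT1 and 0.695 ± 0.0412 in shfirefly, a mean at 58.1% (SD, n = 3). The ratios combine a fall in the immune gene and a rise in the gene it was set against, and they were not tested. The ranges of each of these genes were already apart, so the separation of the ratios follows from them and adds no support.

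**Figure D3:**
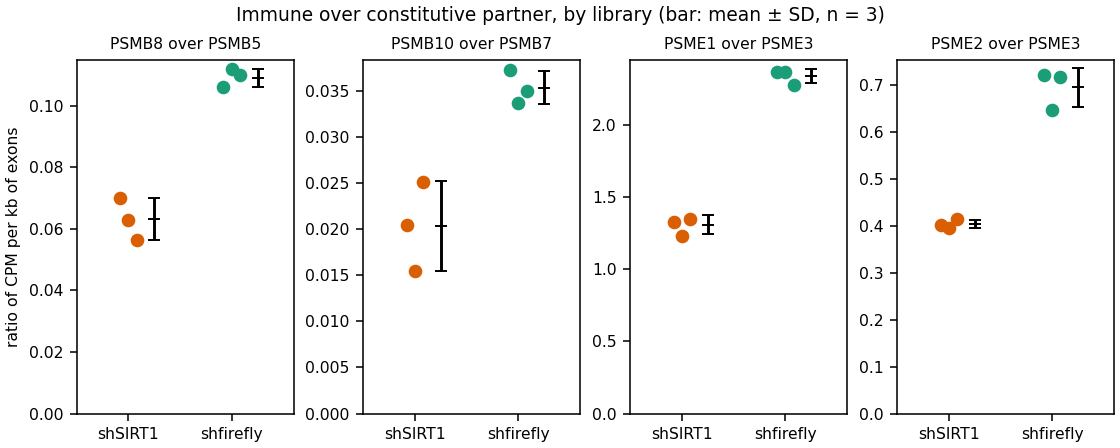
Ratio of CPM per kb of exons of an immune gene to PSMB5 or PSMB7 (its constitutive counterpart) or to the homolog PSME3. Points show each library, with mean ± SD (n = 3) beside them. In all 4 pairs the shSIRT1 libraries lie below the shfirefly libraries, with shSIRT1 means at 55.8% to 58.1% of the shfirefly means.

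Summed over its members, each class kept the direction of most of its genes, so the sums add no separate support. The regulatory particle summed to 2668, 2836 and 2736 CPM in shSIRT1 and 2179, 2185 and 2297 CPM in shfirefly. The core summed to 1150.3, 1175 and 1157 CPM in shSIRT1 and 964, 965 and 981 CPM in shfirefly. The assembly factors summed to 298, 313 and 314 CPM in shSIRT1 and 267, 269 and 277 CPM in shfirefly. All of these sums were higher in every shSIRT1 library, by 1.24, 1.2 and 1.14 times for the means. The immune genes summed to 112, 111 and 117 CPM in shSIRT1 and 131, 132 and 134 CPM in shfirefly, a ratio of 0.854, with most of the sum from PSME1 and PSME2. Sums of the other genes averaged 327 CPM in shSIRT1 and 255 CPM in shfirefly, a ratio of 1.29. All 47 genes summed to 4656 ± 110.3 CPM (SD, n = 3) in shSIRT1 and 3848 ± 87.1 CPM in shfirefly, 1.21 times as much, and PSMD2 alone gave the largest single part.

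Levels between members can be compared only per length. Per kb of all annotated exons in shfirefly, core genes ran from 0.381 ± 0.0370 CPM for PSMA6 to 83.3 ± 2.82 CPM for PSMA7 (SD, n = 3), although the assembled core holds its subunits in equal numbers. The lowest core values belonged to genes that share exons with another gene. In GENCODE 29, other annotated genes on the same strand cover 97.1% of the coding bases of PSMA2, 88.64% of PSMA1, 70.35% of PSMA6, 58.74% of PSMD9 and 58.31% of PSMB10, and no other member exceeds 14.23% (PSMF1). Those 5 were also the 5 lowest of the 45 tested members per kb of coding bases in shfirefly, between 2.56 and 11.5 CPM. The genes without a symbol of their own that overlap PSMA1, PSMA2, PSMA6, PSMB10 and PSMD9 were listed with 0, 7, 26, 83 and 3 counts over the 6 libraries, and WDR66, which also overlaps PSMD9, with 886. How the authors' counter treats a read in shared exons is not given in the sources used here, and its part in these low counts was not tested. PSMA1 (0.39 ± 0.10 SE), PSMA6 (0.33 ± 0.16 SE) and PSMA2 (0.11 ± 0.11 SE) thus rest on few counts, and PSMA6 and PSMA2 did not pass the test (adjusted p = 0.095 and 0.42). Without the 5, 34 of 40 members rose and 3 fell.

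**Figure D4:**
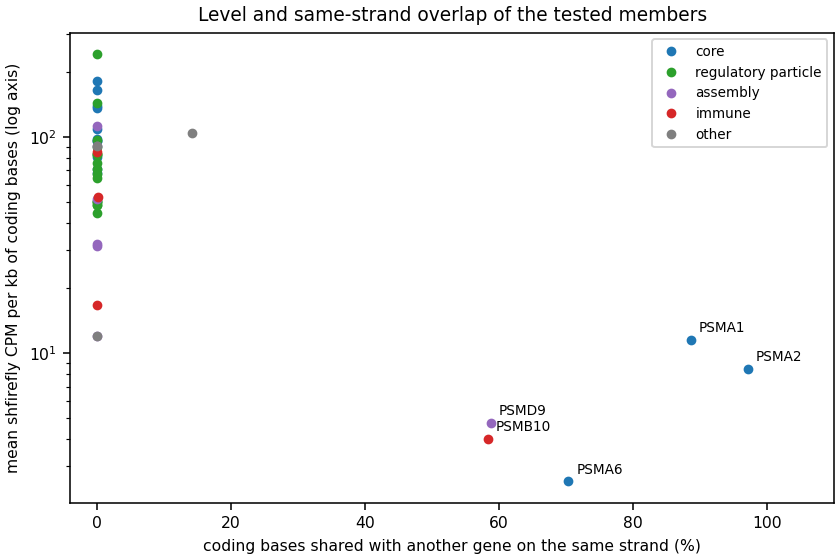
Share of coding bases that another gene on the same strand covers (x axis, percent, GENCODE 29) against the mean shfirefly level per kb of coding bases (y axis, log axis) for the 45 tested members. The 5 named genes, with 58.31% to 97.1% shared, lie at 2.56 to 11.5 CPM per kb.

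Among the 11 core genes without such overlap, levels per kb of coding bases in shfirefly lay within 2.67 times of each other, between 67.8 ± 1.92 CPM for PSMA5 and 181 ± 2.48 CPM for PSMB2 (SD, n = 3), with a median of 97.8 CPM. The regulatory particle lay between 44.6 ± 2.61 CPM for PSMD6 and 242 ± 6.42 CPM for PSMD2, with a median of 70.9 CPM. The immune gene PSMB8, at 16.7 ± 0.493 CPM, was below all of these, while PSME1 stood at 84.9 ± 2.00 CPM, within the range of the core. Per kb of all exons the order within the core was different, with PSMA7 highest. Opposite-strand overlap was found for 18 members, and it covered 75.82% of the exon bases of PSMC1 (NRDE2) and 30.73% of those of PSMD7. If counting ignored the strand, which is not given in the sources used here, such reads could be mixed. Pseudogenes listed under 14 of the members held few counts, other than those of PSMA6 (131 counts, 26.5% of the gene's own) and PSMC1 (1043 counts, 7.98%), so values of these 2 genes are uncertain.

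The partners of the particle that carry other names gave a mixed picture. Of 13 such factors 7 rose (53.8%), 2 fell (15.4%) and 4 did not pass, with a median log2 fold change of 0.11. Over all tested genes 26.8% were higher and 26.0% lower. For these factors 9 rose and 0 fell with library totals alone, and 5 rose and 4 fell with the GC and length correction. Both deubiquitinases that visit the regulatory particle rose: USP14 averaged 261 ± 11.7 CPM in shSIRT1 and 166 ± 1.56 CPM in shfirefly (0.65 ± 0.04 SE, adjusted p = 1.2e-11), and UCHL5 averaged 38.5 ± 2.57 CPM in shSIRT1 and 26.1 ± 2.75 CPM in shfirefly (0.56 ± 0.07 SE, adjusted p = 2.5e-06), with SD over n = 3. The ubiquitin receptor ADRM1 rose (0.22 ± 0.04 SE), as did POMP, the maturation factor of the core (0.28 ± 0.04 SE), though POMP was at 0.08 (adjusted p = 0.28) with the GC and length correction. PAAF1, a chaperone of the base, fell (-0.33 ± 0.11 SE, adjusted p = 0.018), a call lost with library totals alone (-0.21, adjusted p = 0.12), by DESeq2 and without shSIRT1 replicate 1, shfirefly replicate 1 or shfirefly replicate 2 (adjusted p = 0.059 to 0.12). Of the ubiquitin genes and their carriers 5 of 10 were higher and 2 lower, against 26.8% higher and 26.0% lower over all tested genes. The ribosomal fusion gene RPS27A fell (-0.22 ± 0.05 SE, adjusted p = 0.00043), while UBB and the activating enzyme UBA1 rose.

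Genes of the route that controls proteasome transcription moved both ways. NFE2L1 averaged 424 ± 16.8 CPM (SD, n = 3) in shSIRT1 and 577 ± 21.9 CPM in shfirefly, a fall (-0.45 ± 0.04 SE, adjusted p = 4.2e-09). Among 11 genes of its pathway 6 fell (54.5%) and 4 rose (36.4%), with a median of -0.15. Over all tested genes 26.0% were lower and 26.8% higher. NGLY1, which strips sugars from NFE2L1, fell (-0.51 ± 0.06 SE), as did the retrotranslocation gene SEL1L (-0.39 ± 0.04 SE) and the small MAF partners MAFF (-0.83 ± 0.06 SE) and MAFK. DDI2, the protease that cleaves NFE2L1 into its active form, rose (0.30 ± 0.07 SE), as did VCP, the segregase that extracts it from the membrane (0.39 ± 0.04 SE), and KEAP1. The fall of SYVN1, another retrotranslocation gene (-0.15 ± 0.06 SE, adjusted p = 0.025), and the rise of NFE2L2, a relative of NFE2L1 (0.12 ± 0.05 SE, adjusted p = 0.033), were lost under several alternatives, with adjusted p up to 0.64 for SYVN1 with library totals alone and up to 0.20 for NFE2L2 without shfirefly replicate 1. NFE2L1 acts largely through protein processing, so its mRNA is not a measure of its activity. With library totals alone, 5 genes of this pathway rose and 5 fell.

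Of the inducers of the immune forms, 2 of 7 (28.6%) were higher, 3 (42.9%) lower and 2 not passing. The shares of all tested genes were 26.8% higher and 26.0% lower. NLRC5, an activator of HLA class I genes, rose (0.48 ± 0.09 SE, adjusted p = 6.8e-05), as did JAK2 (0.34 ± 0.12 SE, adjusted p = 0.024), whereas STAT2, JAK1 and IFNGR1 fell, IFNGR1 not with library totals alone (-0.12, adjusted p = 0.11). The JAK2 call was lost with the GC and length correction and without shSIRT1 replicate 1, shSIRT1 replicate 3, shfirefly replicate 1 or shfirefly replicate 2 (adjusted p = 0.057 to 0.091). IRF1, a direct activator of immune proteasome genes, averaged 13.8 ± 0.0701 CPM in shSIRT1 and 14.4 ± 0.340 CPM in shfirefly (-0.07 ± 0.08 SE, adjusted p = 0.50), with SD over n = 3. In the reported fit NLRC5 and JAK2 moved opposite to the immune proteasome genes, while STAT2, JAK1 and IFNGR1 moved the same way. A link between these inducers and the immune genes was not tested.

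Other multisubunit complexes give a scale for the members' counts. The chaperonin that folds actin and tubulin had all 8 genes higher, with a median log2 fold change of 0.59. The COP9 signalosome, built on the same plan as the lid, had 8 of 10 higher and 1 lower, with a median of 0.21. Translation factor eIF3, the third complex with that plan, had 4 of 13 higher and 4 lower, with a median of 0.06. These shares, 30.8% each, lay near the 26.8% higher and 26.0% lower of all tested genes. With library totals alone eIF3 had 8 higher and 3 lower, and with the GC and length correction 7 higher and 5 lower. The 8 rising signalosome genes were 5 with upper-quartile factors, with the GC and length correction and without shfirefly replicate 1, and 6 by DESeq2 and without shSIRT1 replicate 1 or shSIRT1 replicate 2, while all 8 chaperonin genes rose under each alternative. The differences between these lists were not tested.

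**Figure D5:**
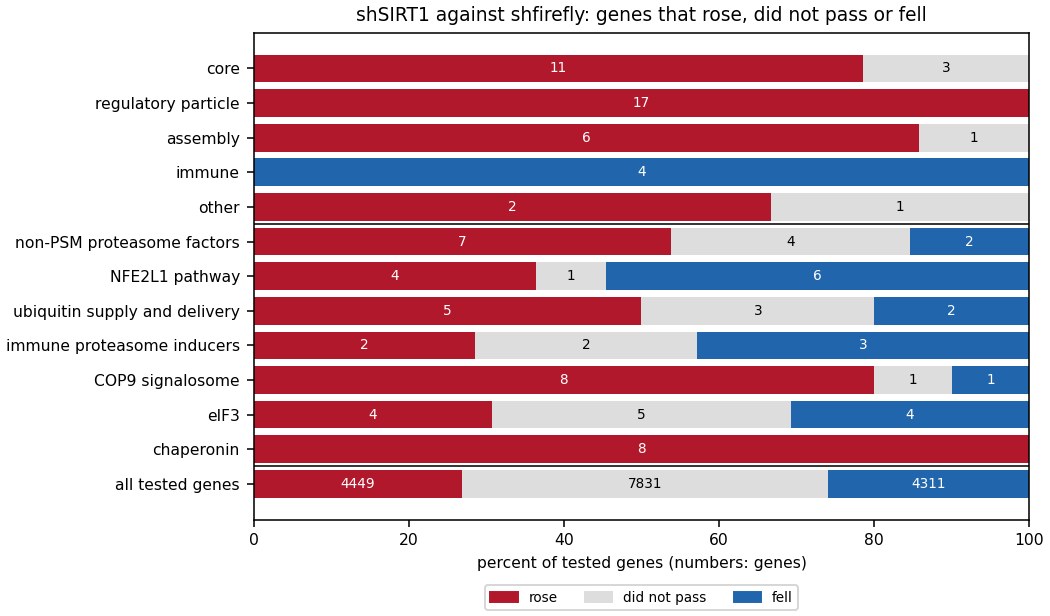
Percent of tested genes that rose, did not pass or fell in shSIRT1 against shfirefly (bars, with gene numbers) for the 5 proteasome classes, for related lists and complexes, and for all tested genes. The regulatory particle (17) and the chaperonin (8) hold only genes that rose, and the immune class (4) only genes that fell.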

How the data were processed

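Read counts per gene are the authors' deposited raw counts, per the file headers. The submitters' processing notes list GRCh38 as build and STAR, Trimmomatic and DESeq2 as tools; for versions, read counter, annotation and strand setting the entry is: not given in the sources used here. Libraries, per the labels' protocols, came from total RNA with the TruSeq Stranded mRNA kit. The authors' deposited table also gives a log2 fold change and an adjusted p-value per gene, which served only as a comparison. Columns were matched to samples by name.

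Genes were filtered with edgeR 4.0.16 filterByExpr (16591 tested), scaled by TMM and tested by the quasi-likelihood F test (robust fit, group alone) in R 4.3.3, with Benjamini-Hochberg adjustment over all tested genes and a threshold of 0.05. The common biological coefficient of variation was 0.0541. Standard errors are the absolute log2 fold change over the square root of F. Library pairs within a group differed beyond sampling noise (chi-square per gene of 2.67 to 5.58), and each library was taken as 1 replicate. This spread does not show whether the libraries came from separate transductions. Where the labels do not say how replicates were grown, p-values measure the spread between these libraries. The labels name no batch. Lengths and overlaps came from GENCODE 29 on GRCh38 (47 of 47 genes matched by identifier without version), promoters from RefSeq on GRCh38.p14. The procedure was tested on simulated counts.

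The members and lists were chosen with earlier results of these data known, and a few genes of the lists are not reported here. By rule all members could be named, with full values for the 10 largest called rises, up to 10 called falls, the immune and assembly genes, PSMB5, PSMB6, PSMB7 and PSMD14, and called genes of the lists; PSMD2, PSMB4, PSMD4, PSMD8, PSMF1 and IRF1 were chosen after their values were seen. Alternatives were RLE, upper-quartile and no scaling factors, DESeq2 1.42.0, no filter, at least 1 CPM in 3 libraries, a replicate block, no robust estimation, a GC and length offset (splines with 5 degrees of freedom; 99.1% of tested genes had both values), another gene length, and each library left out. Coding length and the count without members with shared exons were added after seeing the data.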

Additional observations from a re-analysis of the deposited data

How the results depend on the processing

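The 36 rising members were 34 to 38 under the other scalings, filters, tools and designs and 33 to 36 with 1 library left out. The 4 falling members were 2 with library totals alone and 2 by DESeq2 (2 to 5 with 1 library left out, 2 without shSIRT1 replicate 2). The 4 falling immune genes were 2 with library totals alone, 2 by DESeq2 and 1 with the GC content and length correction (2 to 4 with 1 library left out, 2 without shSIRT1 replicate 2). In the assembly class 1 gene, PSMD10, fell with RLE factors, with upper-quartile factors, with at least 1 CPM in 3 libraries, with the replicate block and with the GC content and length correction, where 0 fell in the reported fit (0 to 1 with 1 library left out, 1 without shSIRT1 replicate 3 and 1 without shfirefly replicate 1). With the same correction 1 regulatory particle gene, PSMD14, fell (log2 fold change -0.13), and with upper-quartile factors 1 of the other genes, PSMF1, fell; PSMF1 was at 0.04 with library totals alone. The causes were not tested. Over all genes the split was 4449 higher and 4311 lower, and 6225 and 3021 with library totals alone. Of the single-gene values under an alternative, 634 kept direction and side of the threshold, 28 lost the call, 11 gained one and 2 turned.

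Per kb of the longest transcript, the class medians in shfirefly were 46.5 (core), 38.8 (regulatory particle), 13.6 (assembly), 11.1 (immune) and 23.6 CPM (other), and per kb of coding bases 95.8, 70.9, 32.0, 34.8 and 91.0 CPM, where all exons gave 31.8, 23.1, 10.8, 8.58 and 17.0 CPM. Same-numbered libraries of the groups deviated together little (Pearson's r of 0.0176, -0.0280 and 0.188 across genes), and differently numbered ones had r of -0.17 to 0.166. The numbers were not used as pairs, though 3 libraries per group cannot exclude pairing. The replicate block gave 36 members higher and 5 lower and 4711 and 4465 genes in all. The authors' deposited table called 34 members higher and 2 lower at its adjusted p. Depth limits PSMA6, PSMB10 and PSMD9 the most, at 55 to 154 counts per library.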
